A study of Homo sapiens with 22 samples.

Results

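The genes described here are 42 members of the Wnt pathway, taken by symbol from the 63677 genes listed in each deposited table: 19 Wnt ligands, 12 receptors and co-receptors, 9 secreted antagonists and 2 transcriptional targets, AXIN2 and LEF1. Their RNA was measured by total RNA sequencing in 22 libraries of human neuroblastoma cell lines. SH-SY5Y cells carried a lentiviral shRNA, kept under puromycin selection, against the CASC15-003 transcript (sh003), against the CASC15-004 transcript (sh004) or a scrambled control, and each knockdown used a pair of different shRNAs (sh1 and sh2). The monolayer groups were sh003 with retinoic acid for 7 days (n = 3) and without it at day 0 (n = 3), sh004 at day 7 (n = 2) and day 0 (n = 2), and the scrambled control at day 7 (n = 2) and day 0 (n = 3). By the treatment labels, day 0 cells were in medium with 10% serum and day 7 cells in medium with 1% serum and retinoic acid, while the growth protocol shared by all samples gives 10% serum and another basal medium (DMEM/F12 in place of DMEM) with retinoic acid. Wherever day 7 is set against day 0, the parts of retinoic acid, time, medium and serum cannot be told apart. The retinoic acid dose is given in the labels as 10 mM. Spheres grown in sphere medium came from sh003 (n = 2), sh004 (n = 2) and control cells (n = 1), and KELLY cells, another neuroblastoma line, received an siRNA against SOX9 (n = 1) or a control siRNA (n = 1). The question these genes address is how ligand, receptor and antagonist RNA stood at day 7 against day 0, under each knockdown, in spheres and after SOX9 siRNA.

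Wnt ligands are secreted lipid-modified proteins that bind Frizzled (FZD) receptors together with the co-receptors LRP5 and LRP6. In the canonical branch this stabilises β-catenin, which binds TCF/LEF proteins at target genes such as AXIN2 and LEF1, while other ligands such as WNT5A act mainly through planar polarity and ROR receptors. Dickkopf proteins (DKK1, DKK2, DKK4) bind LRP5 and LRP6, whereas secreted frizzled-related proteins (SFRP1, SFRP2, SFRP4, SFRP5 and FRZB) bind the ligands themselves. In the neural crest, the embryonic tissue from which neuroblastoma arises, Wnt signals act in induction, delamination and the sympathetic lineage.

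Each knockdown group holds cells made with the shRNAs printed here, since they define what was removed. All are designed against CASC15 on chromosome 6, are printed 5′ to 3′ in lower case with no part marked.
sh003 sh1: ctagcactgacctccttcatt
sh003 sh2: ctttccatcagccaacaatat
sh004 sh1: caggctgttcccagggattta
sh004 sh2: taggaataccttacatccaat

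CASC15, the long non-coding RNA gene that the shRNAs target, had 2.08, 3.27 and 3.38 RPKM in sh003 libraries at day 7, 1.31 and 1.48 RPKM in sh004 libraries at day 7, and 3.33 and 3.26 RPKM in control libraries at day 7. At day 0 it had 2.65, 1.95 and 1.57 RPKM with sh003, 1.16 and 1.14 RPKM with sh004, and 1.52, 1.31 and 2.38 RPKM in controls. The tables count all CASC15 transcripts of the gene together, so these values do not show the single transcripts: gene-level CASC15 overlapped controls with sh003 and lay below every control with sh004. RPKM is reads per kilobase of gene, scaled to a common library total, and the libraries held 11884895 to 62075189 assigned reads. For the sh003 sh1 batch 2 library titled day 7 and the sh003 sh2 batch 1 library titled day 0, the culture tag and treatment label contradict the title, and both were grouped by title. Retinoic acid response markers summed to 2958 RPKM in that day 7 library, against 14.1 RPKM in that day 0 library, and to 1910 to 2991 RPKM in the other day 7 libraries, against 18.9 to 184 RPKM in the other day 0 libraries, so both stood with the day of their title. Sympathetic neuroblast markers summed to 647 to 2807 RPKM in monolayers, 1636 to 3755 RPKM in spheres and 2065 to 2468 RPKM in KELLY, whereas Schwann cell markers reached at most 5.97 RPKM, blood markers 2.12 RPKM and endothelial markers 1.495 RPKM. In bulk libraries fewer cells of a type and less RNA per cell cannot be told apart.

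Most of the receptors and few of the ligands were expressed. A level of 1 RPKM or above in at least 1 library was reached by 7 of 19 ligands (WNT3, WNT5A, WNT6, WNT9A, WNT10A, WNT10B and WNT11), by 11 of 12 receptors (all but FZD10), by 6 of 9 antagonists (DKK1, DKK2, DKK3, SFRP1, SFRP4 and FRZB) and by both targets. WNT2 had 0 reads in all 22 libraries. The highest levels of the family were 312 RPKM for DKK1 in a day 0 monolayer, 174 RPKM for SFRP1 in a day 7 monolayer and 149 RPKM for WNT6 in a sphere. Of the receptors, FZD7 reached 48.7 RPKM, FZD1 24.0 RPKM, LRP5 23.5 RPKM, FZD2 21.0 RPKM and LRP6 11.99 RPKM. A total of 24 members passed the filter on low values in monolayers (5 ligands, 11 receptors, 6 antagonists and 2 targets) and 22 in spheres (5, 9, 6 and 2).

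**Figure D1:**
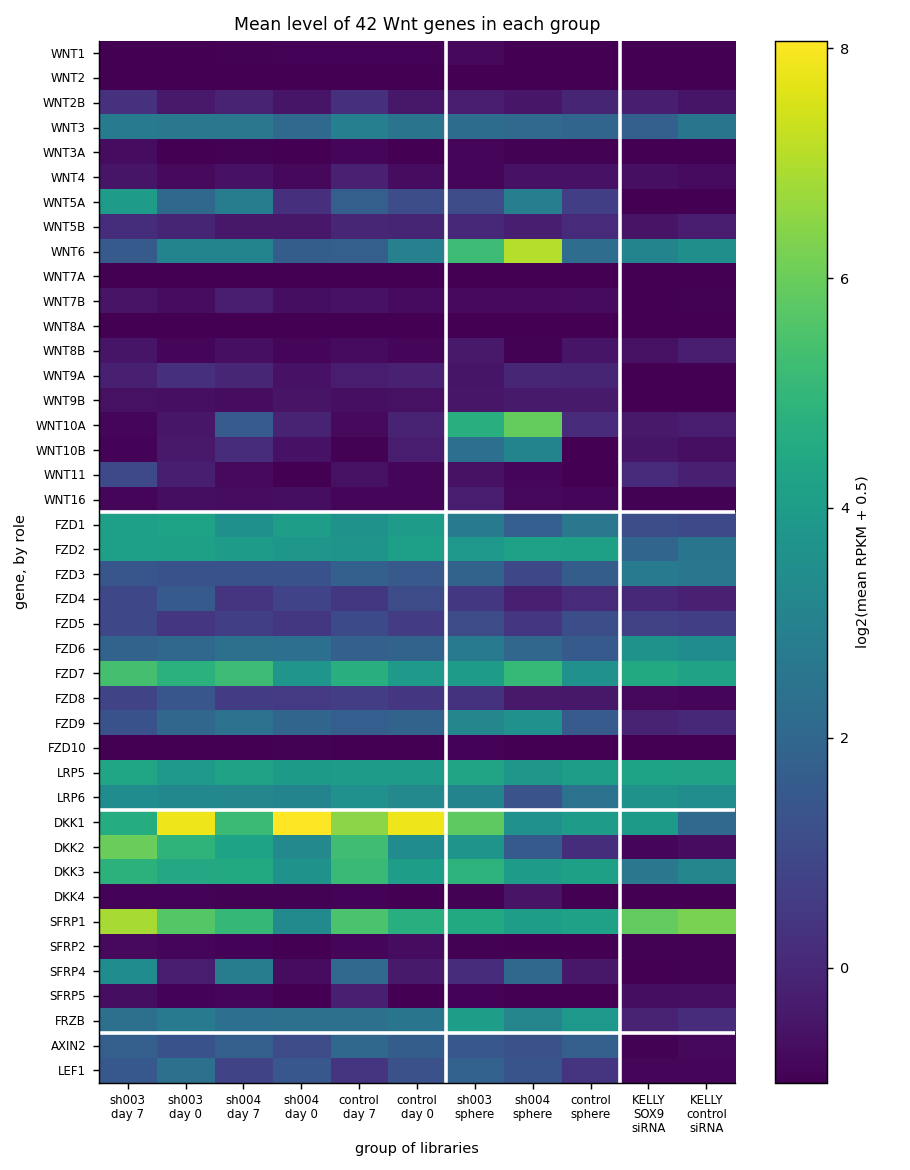
Mean level of each of the 42 genes (rows, by role) in the 11 groups (columns), as log2 of mean RPKM + 0.5, with white lines between roles and between monolayers, spheres and KELLY. DKK1 is brightest at day 0, WNT6 and WNT10A are brightest in sh004 spheres, and 12 ligands stay dark in every group.

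Day 7, with retinoic acid and the lower labelled serum, had less DKK1 RNA in both knockdown lines and more SFRP4 RNA in sh003 cells. DKK1, which blocks LRP5 and LRP6, averaged 23.7 ± 5.72 RPKM at day 7 against 230 ± 112 RPKM at day 0 in sh003 cells (SD, n = 3 each). In sh004 cells it averaged 35.6 ± 13.4 RPKM at day 7 against 267 ± 37.3 RPKM at day 0 (SD, n = 2 each). DKK1 fell in both knockdown lines, and the scrambled control, with 89.5 ± 29.9 RPKM at day 7 (SD, n = 2) against 227 ± 13.7 RPKM at day 0 (SD, n = 3), passed the test only when batch was a term of the fit. SFRP4, a ligand-binding antagonist, rose in sh003 cells to 10.0 ± 6.11 RPKM at day 7, against 0.303 ± 0.122 RPKM at day 0 (SD, n = 3 each). SFRP4 passed the filter on low values through day 7 libraries alone. Its call was lost with no filter and in most fits that left out 1 library. Calls are at an adjusted p under 0.05 over the 19461 genes tested with limma on log2(RPKM + 0.5), a scale that understates changes of low genes.

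DKK1 read 21.9, 19.1 and 30.1 RPKM in the sh003 day 7 libraries, against 103, 276 and 312 RPKM at day 0. In sh004 cells DKK1 read 26.1 and 45.1 RPKM at day 7, against 294 and 241 RPKM at day 0. In control cells DKK1 read 68.4 and 111 RPKM at day 7, against 243, 218 and 221 RPKM at day 0. The day 7 and day 0 libraries did not overlap in any of the 3 lines, and the lowest day 0 value belonged to the sh003 sh1 library of batch 3. The log2 change was -3.13 (SE 0.385, adjusted p 0.00233 by limma) with sh003, -2.94 (SE 0.472, adjusted p 0.0256) with sh004 and -1.38 (SE 0.43, adjusted p 0.174) in control. With batch as a term these became -3.44 (adjusted p 0.000638), -2.94 (adjusted p 0.00485) and -1.64 (adjusted p 0.0286). The sh003 call held in all 15 fits that each left out 1 library (adjusted p 0.000347 to 0.0132). The sh004 call held in 11 of 15 and was lost without the sh003 sh1 batch 2 day 7 (adjusted p 0.0520), sh004 sh1 day 0 (0.262), sh004 sh1 day 7 (0.176) or sh004 sh2 day 0 library (0.188), and without the 2 libraries with contradicting tags (0.0716); with the batch term it held in all 15. The control call with the batch term was lost without the control batch 1 day 0 (adjusted p 0.120), batch 1 day 7 (0.187) or batch 2 day 7 library (0.115). In a GENCODE annotation of a later build than hg19, DKK1 shares 9.61% of its exon bases with PRKG1-AS1 on the opposite strand. Reads of the 2 genes cannot be told apart where the strand used in counting is not stated.

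**Figure D2:**
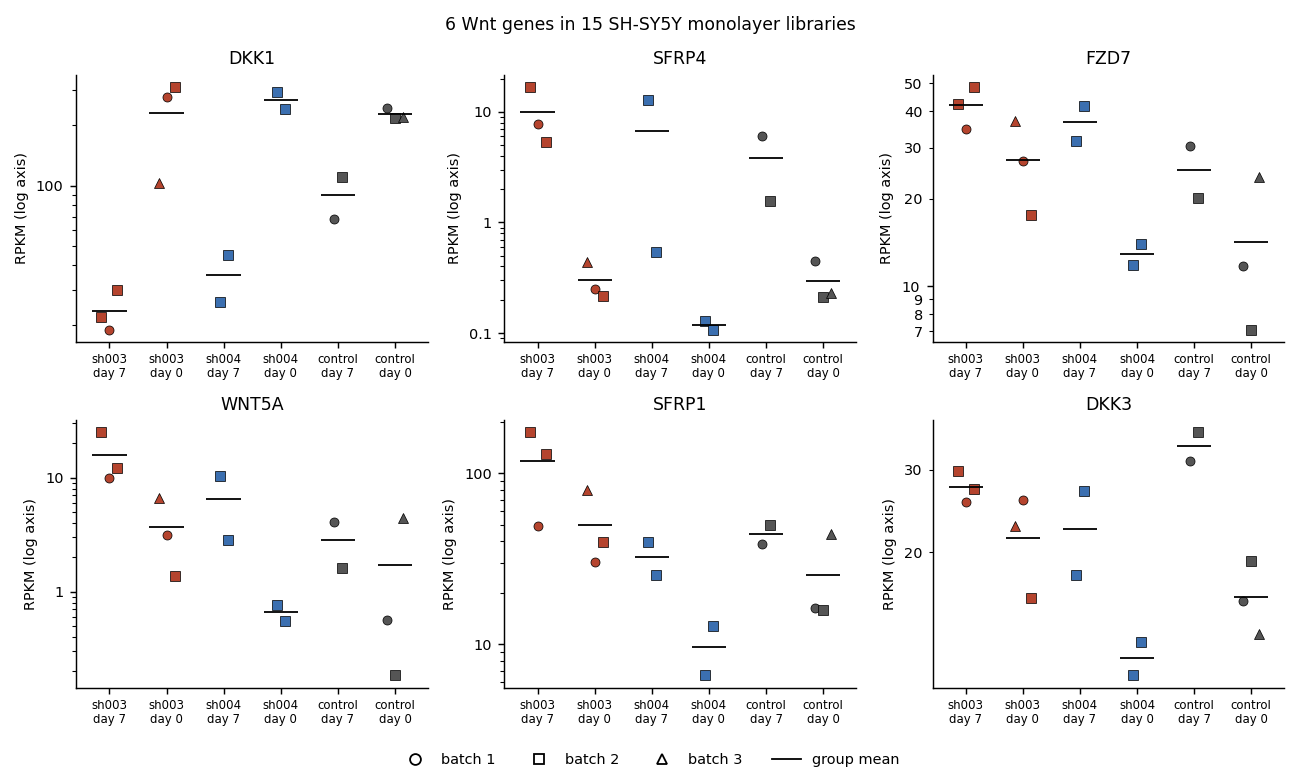
RPKM (log axis) of DKK1, SFRP4, FZD7, WNT5A, SFRP1 and DKK3 in the 15 monolayer libraries, by shRNA and day; marker shape gives the batch and the line the group mean. DKK1 lies at 19.1 to 111 RPKM at day 7 and 103 to 312 RPKM at day 0, while SFRP4 stays at 0.444 RPKM or lower in every day 0 library.

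Between day 7 and day 0, 2 of 24 members were called in sh003 cells (SFRP4 up, DKK1 down), where 2.35% of all genes were called, and 1 in sh004 cells (DKK1 down), where 0.38% were called. At an unadjusted p under 0.05 there were 6 members in sh003 cells (18.5% of genes) and 7 in sh004 cells (8.23%). In control cells limma called 0 members, where 0.956% of genes were called; 5 members had an unadjusted p under 0.05, as did 14% of genes, and limma with voom on the recovered reads also called 0. With the batch term the calls were 6 of 24 in sh003 cells (14.3% of genes), 2 in sh004 cells (2.11%) and 3 in control cells (7.68%). Batch 3 holds only day 0 libraries, of control and sh003 cells. The batch term takes up their shared level, which then does not enter day 7 against day 0. Day 7 and day 0 libraries did not overlap for 7 members in sh003 cells (29.2%, beside 23.6% of genes), 11 in sh004 cells (45.8%, beside 39.0%) and 9 in control cells (37.5%, beside 27.2%). The median member change was 0.12 on the log2 scale in sh003 cells, 0.24 in sh004 cells and 0.17 in control cells, beside 0.05, 0.02 and 0.15 over all genes tested. Median-ratio scaling moved the median of all genes to 0.07 in control cells and to -0.01 in sh003 cells, and the share of calls that were higher to 62.7% (73.7% without it) and 54.8% (66.6%). The labels do not say whether libraries of a group came from separate cultures, so each p-value rests on how far these libraries varied, which may be technical.

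Among the other antagonists, SFRP4 read 16.9, 7.74 and 5.33 RPKM in sh003 cells at day 7, against 0.442, 0.252 and 0.215 RPKM at day 0. SFRP4 read 12.9 and 0.540 RPKM in sh004 cells at day 7, against 0.130 and 0.107 RPKM at day 0, and 6.06 and 1.57 RPKM in control cells at day 7, against 0.444, 0.210 and 0.229 RPKM at day 0. Every day 7 library lay above every day 0 library, with the sh004 sh2 library far below the rest of day 7. The sh003 change was 3.56 (SE 0.776, adjusted p 0.0395 by limma), and those of sh004 and control did not pass. The call held in 4 of the 15 fits that left out 1 library, those without either control day 7 library or either sh004 day 7 library, and adjusted p was 0.0502 to 0.137 in the others. It was lost with no filter (adjusted p 0.0675), with voom (0.109) and without the 2 libraries with contradicting tags (0.203). With the batch term adjusted p was 0.0214, which was lost with voom (0.0592) and without the sh003 sh1 batch 2 day 7 (0.0528), sh2 batch 1 day 0 (0.0918), sh2 batch 1 day 7 (0.0611) or sh2 batch 2 day 0 library (0.116).

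SFRP1, a ligand-binding antagonist, read 174, 49.3 and 130 RPKM in sh003 cells at day 7, against 80.1, 30.3 and 39.8 RPKM at day 0. In sh004 cells it read 39.7 and 25.6 RPKM at day 7, against 6.58 and 12.7 RPKM at day 0, and in control cells 38.7 and 49.9 RPKM at day 7, against 16.2, 15.8 and 44.4 RPKM at day 0. The sh003 and control groups overlapped and the sh004 groups did not. The overlap came through the batch 3 day 0 libraries (80.1 RPKM with sh003, 44.4 RPKM in control), whose shared level the batch term takes up. SFRP1 rose in sh003 cells only as tested with the batch term (1.496, SE 0.361, adjusted p 0.0244 by limma; 0.288 without it), and lost that call without the sh003 sh1 batch 2 day 7 (0.0569), sh2 batch 1 day 0 (0.0672), sh2 batch 2 day 0 (0.147) or sh2 batch 2 day 7 library (0.0741).

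DKK3, a Dickkopf relative for which LRP binding is not established, read 31.3 and 36.0 RPKM in control cells at day 7, against 15.8, 19.2 and 13.4 RPKM at day 0. The control libraries did not overlap, and DKK3 rose with the batch term (1.02, SE 0.249, adjusted p 0.0388 by limma; 0.0675 without it), a call that was lost under median-ratio scaling (0.0542). It held in 5 of 15 fits without 1 library, those without the sh003 sh1 batch 2 day 7, sh003 sh2 day 0 of either batch or either sh004 day 7 library, and adjusted p was 0.0533 to 0.230 in the others. In knockdown cells DKK3 read 29.7, 25.6 and 27.3 RPKM with sh003 and 17.9 and 27.0 RPKM with sh004 at day 7, against 22.8, 25.8 and 16.0 RPKM and 10.96 and 12.9 RPKM at day 0. DKK2, which acts on LRP6 as an antagonist or a weak agonist depending on context, read 41.3 and 35.8 RPKM in control cells at day 7, against 6.29, 3.83 and 20.2 RPKM at day 0, with a log2 change of 2.20 (adjusted p 0.174 by limma). DKK2 was at 36.1, 62.3 and 89.6 RPKM with sh003 and 19.9 and 17.1 RPKM with sh004 at day 7, against 9.99, 47.0 and 31.9 RPKM and 8.55 and 9.77 RPKM at day 0. FRZB lay between 2.14 and 8.77 RPKM in all monolayers and was not called, and DKK4, SFRP2 and SFRP5 stayed under 1 RPKM.

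Of the receptors, FZD7, a Frizzled of canonical and polarity signalling, read 42.5, 34.8 and 48.7 RPKM in sh003 cells at day 7, against 37.2, 26.9 and 17.6 RPKM at day 0. It read 31.5 and 41.9 RPKM in sh004 cells at day 7, against 11.8 and 13.9 RPKM at day 0, and 30.3 and 20.1 RPKM in control cells at day 7, against 11.7, 7.08 and 23.9 RPKM at day 0. The sh004 groups stood apart, and in the other lines a batch 3 day 0 library reached into the day 7 range. The batch term takes up the shared level of these batch 3 libraries, so rises found with that term set it aside. FZD7 was not called without the batch term (adjusted p 0.410, 0.380 and 0.360 by limma for sh003, sh004 and control), and rose with it in all 3 lines, by 1.07 (adjusted p 0.0209), 1.47 (0.0306) and 1.29 (0.0236). Those batch-term calls held in 12, 9 and 11 of 15 fits that left out 1 library. The sh003 call was lost without the sh003 sh1 batch 2 day 7 (0.0505), sh2 batch 2 day 0 (0.130) or sh2 batch 2 day 7 library (0.0683). The sh004 call was lost without the control batch 1 day 0 (0.0549), control batch 2 day 7 (0.0508), sh003 sh2 batch 2 day 0 (0.0510), sh004 sh1 day 0 (0.151), sh004 sh2 day 0 (0.129) or sh004 sh2 day 7 library (0.0529). The control call was lost without any of the control libraries of batch 1 or 2 (0.0917 to 0.163).

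The other receptors were not called in any monolayer comparison of day 7 with day 0. FZD1 lay between 9.09 and 24.0 RPKM, FZD2 between 8.59 and 21.0 RPKM, LRP5 between 10.5 and 23.5 RPKM and LRP6 between 7.01 and 11.99 RPKM over the 15 libraries. LRP6, a co-receptor that Wnt ligands bind with a Frizzled, read 9.09, 10.2 and 10.8 RPKM in sh003 cells at day 7, against 10.6, 8.90 and 7.01 RPKM at day 0, and these groups overlapped. FZD3, FZD4, FZD5, FZD6, FZD8 and FZD9 lay between 0.407 and 5.93 RPKM.

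Among the ligands, WNT5A, a ligand of the polarity branch, read 24.9, 9.87 and 12.2 RPKM in sh003 cells at day 7, against 6.59, 3.11 and 1.38 RPKM at day 0. It read 10.3 and 2.82 RPKM in sh004 cells at day 7, against 0.760 and 0.551 RPKM at day 0, and 4.06 and 1.62 RPKM in control cells at day 7, against 0.569, 0.184 and 4.42 RPKM at day 0. Day 7 stood above day 0 in both knockdown lines, and the batch 3 control at day 0 exceeded both control libraries at day 7. The batch term takes up the shared level of the batch 3 libraries, which are all of day 0. WNT5A rose in sh003 cells with the batch term (2.76, SE 0.544, adjusted p 0.0121 by limma; 0.169 without it), which was lost without the sh003 sh2 batch 2 day 0 library (0.0925). WNT11, another ligand of the polarity branch, had 2.07, 1.90 and 0.495 RPKM in sh003 cells at day 7, against 0.199, 0.688 and 0.132 RPKM at day 0. These groups overlapped, and the batch-term call (1.22, adjusted p 0.0361 by limma) held in 5 of the 13 fits without 1 library in which WNT11 was tested, those without the control day 0 libraries of batches 1 and 2, the sh003 sh2 batch 2 day 7 or either sh004 day 7 library. Adjusted p was 0.0517 to 0.197 in the others, and 0.0769 with voom. WNT11 was at most 0.271 RPKM in sh004 and control monolayers. This gene passed the filter on low values only through the sh003 day 7 libraries with 2.07 and 1.90 RPKM, in the group called higher. It was not tested when 1 of these was left out, so the 13 fits do not show whether the call depends on them. WNT3, a canonical ligand, lay between 2.90 and 8.04 RPKM in all 15 libraries and was not called.

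WNT6 and WNT10A, canonical ligands, were singled out after their values were seen, and neither was called between day 7 and day 0. WNT6 had 2.09, 2.42 and 2.79 RPKM in sh003 cells at day 7, against 13.97, 5.96 and 4.32 RPKM at day 0 (log2 change -1.39, adjusted p 0.247 by limma). In control cells it had 2.71 and 3.04 RPKM at day 7, against 3.80, 4.10 and 13.9 RPKM at day 0 (-0.96, adjusted p 0.587). Day 7 lay below day 0 without overlap in both lines, and the highest day 0 level in each belonged to the batch 3 library. In sh004 cells WNT6 had 2.58 RPKM (sh1) and 13.5 RPKM (sh2) at day 7, against 3.44 RPKM (sh1) and 1.99 RPKM (sh2) at day 0, so that it was lower at day 7 in 5 of the 6 same-batch pairs and higher in the sh004 sh2 pair. WNT10A reached 4.72 RPKM in the sh004 sh2 library at day 7 and 1.05 RPKM or less in the other monolayers. That sh004 sh2 library also had the lowest CYP26A1 of day 7, 9.001 RPKM against 221 to 687 RPKM in the others, and a neuroblast marker sum of 2807 RPKM against 647 to 1258 RPKM; their part in these values was not tested.

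The 2 target genes did not move together. LEF1, a DNA-binding partner of β-catenin, had 1.42, 2.67 and 2.82 RPKM in sh003 cells at day 7, against 4.79, 3.97 and 5.04 RPKM at day 0 (log2 change -0.90, adjusted p 0.171 by limma). LEF1 had 1.99 and 0.606 RPKM in sh004 cells and 1.01 and 0.558 RPKM in control cells at day 7, against 2.56 and 1.91 RPKM and 2.26, 2.14 and 1.25 RPKM at day 0. AXIN2, a feedback inhibitor of β-catenin signalling, lay between 1.22 and 4.37 RPKM in all monolayers. Neither was called in any comparison of day 7 with day 0. In the GENCODE annotation used for overlaps, AXIN2 shares 25.2% of its exon bases with AC004805.1 on the same strand, where reads of both genes cannot be told apart. LEF1 shares 5.20% with LEF1-AS1 on the opposite strand.

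Pairs of libraries with the same shRNA and batch show the direction within batches. The batch 3 day 0 libraries have no such partner and are not among them. The sh003 sh2 batch 1 pair uses the day 0 library whose tags contradict its title. Over the 6 such pairs, 8 of 24 members were higher at day 7 in every pair (WNT5A, FZD5, FZD7, LRP6, DKK2, SFRP1, SFRP4 and AXIN2), where 17.7% of all genes were. Some of these differences were small, as for FZD5 (0.015 in the sh004 sh1 pair) and AXIN2 (0.027 in the control batch 1 pair). Lower in every pair were 3 members (FZD1, DKK1 and LEF1), where 12.7% of genes were, and 30.4% of genes lay on one side in every pair. DKK1 differed by -3.82 and -3.35 on the log2 scale in the sh003 pairs, by -3.47 and -2.40 in the sh004 pairs, and by -1.82 and -0.97 in the control pairs. DKK2 differed by 0.40 and 1.48 in the sh003 pairs and 1.17 and 0.77 in the sh004 pairs, against 2.62 and 3.07 in the control pairs.

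**Figure D3:**
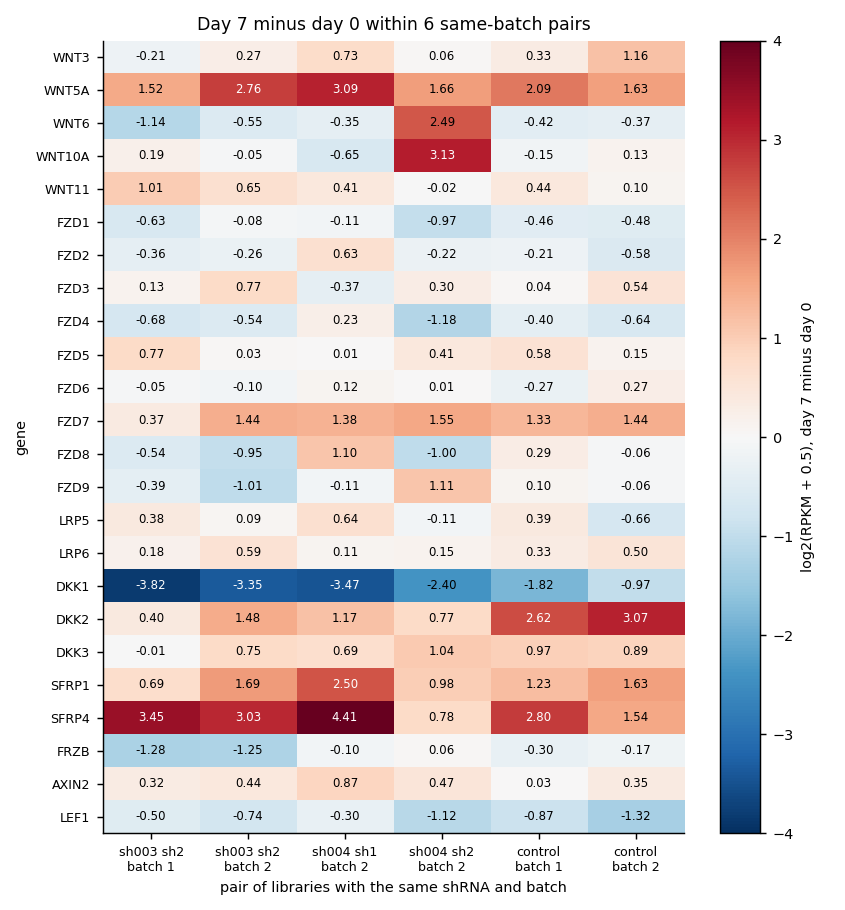
Day 7 minus day 0 on the log2(RPKM + 0.5) scale for the 24 tested members (rows) in 6 pairs of libraries of the same shRNA and batch (columns), with each value printed; colours saturate at 4. DKK1 is negative and SFRP4, WNT5A and FZD7 are positive in all 6 pairs, and WNT6 and WNT10A are high in the sh004 sh2 pair alone.

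The neuroblast marker sum was 669, 1065 and 849 RPKM in sh003 cells at day 7, against 826, 1285 and 1164 RPKM at day 0, and 1258 and 1154 RPKM in control cells at day 7, against 1804, 1995 and 978 RPKM at day 0. In sh004 cells it was 647 (sh1) and 2807 RPKM (sh2) at day 7, against 1633 (sh1) and 1417 RPKM (sh2) at day 0, in opposite directions for the 2 shRNAs. Of the neuroblast markers reported here, GATA2, GATA3 and DBH fell in sh003 cells with the batch term, and GATA2 and GATA3 fell in sh004 and control cells. The mesenchymal marker sum was 497 to 712 RPKM in sh003 cells at day 7 against 595 to 667 RPKM at day 0, and 276 to 475 RPKM in control cells at day 7 against 249 to 603 RPKM at day 0. In sh004 cells it was 484 (sh1) and 224 RPKM (sh2) at day 7, against 312 (sh1) and 402 RPKM (sh2) at day 0, again in opposite directions. Of 10 tested mesenchymal markers DCN fell in sh003 cells (-1.88, adjusted p 0.0428 by limma), and of the 12 listed only PRRX1 was at 0 in some libraries. The part of these markers in the Wnt gene values was not tested.

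Of the members called between day 7 and day 0, DKK1, SFRP4 and WNT5A had a promoter entry and FZD7, SFRP1, DKK3 and WNT11 did not. The 3 promoters are printed to show the sequence at their start sites, from 250 bases before to 50 after each start, as RefSeq gives them for GRCh38.p14, a later build than the hg19 used by the authors. Capitals mark matches, on either strand, to the TCF/LEF core (CTTTGAT or CTTTGTT) or to the retinoic acid receptor half-site (AGGTCA or AGTTCA). A half-site is only part of a full site.
DKK1, chr10:52314031-52314330, plus strand: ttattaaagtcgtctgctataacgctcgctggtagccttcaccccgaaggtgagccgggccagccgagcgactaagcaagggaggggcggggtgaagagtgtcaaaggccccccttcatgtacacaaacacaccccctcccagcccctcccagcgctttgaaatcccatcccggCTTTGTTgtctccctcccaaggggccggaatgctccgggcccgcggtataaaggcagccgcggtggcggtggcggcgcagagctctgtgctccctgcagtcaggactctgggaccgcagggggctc
SFRP4, chr7:37916768-37917067, minus strand: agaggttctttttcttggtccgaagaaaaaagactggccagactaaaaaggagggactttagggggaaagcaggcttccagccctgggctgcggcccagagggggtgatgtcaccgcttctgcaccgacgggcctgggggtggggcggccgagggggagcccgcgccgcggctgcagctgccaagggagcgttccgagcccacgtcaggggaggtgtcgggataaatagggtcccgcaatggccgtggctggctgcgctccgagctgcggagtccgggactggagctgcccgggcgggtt
WNT5A, chr3:55487257-55487556, minus strand: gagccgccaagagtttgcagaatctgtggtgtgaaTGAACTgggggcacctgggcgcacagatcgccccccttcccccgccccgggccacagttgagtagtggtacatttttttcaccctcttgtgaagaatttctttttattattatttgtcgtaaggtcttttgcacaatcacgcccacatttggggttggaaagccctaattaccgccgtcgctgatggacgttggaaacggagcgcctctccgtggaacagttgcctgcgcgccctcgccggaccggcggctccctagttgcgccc
The DKK1 window holds 1 TCF/LEF core, the WNT5A window 1 retinoic acid receptor half-site on its opposite strand, and the SFRP4 window neither. Promoters were found for 28 of the 42 members. The TCF/LEF core occurs in 2 of these 28 (DKK1 and WNT3) and in 7.71% of all 27305 promoters. The receptor half-site occurs in 4 (WNT2, WNT3, WNT5A and WNT16) and in 22.8% of all promoters. A match is a run of letters and not a shown binding site.

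Of 72 other Wnt pathway genes in the lists, 59 were tested in monolayers. In sh003 cells at day 7, 1 rose and 3 fell: ROR1, a receptor for WNT5A, at 14.9 ± 1.95 RPKM against 4.97 ± 1.18 RPKM at day 0 (adjusted p 0.0219 by limma), the surface proteoglycan GPC3 at 1.77 ± 0.853 against 14.3 ± 0.904 RPKM (0.00264), the co-repressor TLE1 at 3.46 ± 1.11 against 9.56 ± 2.43 RPKM (0.0251), and the cell cycle gene CCND1 at 75.1 ± 43.0 against 356 ± 171 RPKM (0.0278; SD, n = 3 each). In control cells 3 fell: GPC3 (2.73 RPKM at day 7, 13.1 RPKM at day 0, adjusted p 0.0361), TLE1 (2.04 RPKM at day 7, 12.8 RPKM at day 0, 0.00372) and MYC (2.56 RPKM at day 7, 14.1 RPKM at day 0, 0.0459). No gene of these lists was called by limma in sh004 cells, where 9 had an unadjusted p under 0.05, as did 8.23% of all genes. Over all genes limma called 2.35% in sh003 cells, 0.38% in sh004 cells and 0.956% in control cells. Leaving out 1 library at a time, GPC3 in sh003 cells held in all 15 fits, TLE1 in control cells in 13, ROR1 and TLE1 in sh003 cells in 10, CCND1 in 9, and GPC3 and MYC in control cells in 4 (highest adjusted p 0.256 and 0.301). With the batch term 4 of the 59 rose and 7 fell in sh003 cells (14.3% of all genes called). There 2 rose and 1 fell in sh004 cells (2.11%), and 1 rose and 5 fell in control cells (7.68%). The tested feedback target genes, 9 in number, had a median change of -1.09 in sh003 cells, -0.60 in sh004 cells and -0.75 in control cells. Over all genes tested the median was 0.05, 0.02 and 0.15 in these lines. Of the 9, 2 were higher in sh003 cells, 1 in sh004 cells and 1 in control cells. The 9 include CCND1 and MYC and leave out AXIN2, a member, which was higher at day 7 in every same-batch pair. Their medians therefore do not stand for Wnt feedback as a whole. TNFRSF19, a feedback target, rose with the batch term in sh004 and control cells.

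Knockdown against control gave no called member on either day. With sh003 at day 0, limma called 0 members and 0.00514% of genes, and 3 members and 5.78% of genes had an unadjusted p under 0.05. With sh004 at day 0 it called 0 members and 0.0% of genes, and 0 members and 1.94% of genes had an unadjusted p under 0.05. At day 7 it called 0 members and 0.0% of genes for sh003, with 4 members and 7.22% of genes at an unadjusted p under 0.05, and 0 and 0.0% for sh004, with 4 members and 8.04% of genes. With the batch term 0 members were called in all 4 as well, beside 0.252% of genes for sh003 and 0.0% for sh004 at day 0, and 0.00514% for sh003 and 0.226% for sh004 at day 7, and voom called 0 members. Members standing apart from control numbered 3 at day 0 with sh003 (9.02% of genes) and 7 with sh004 (17.8%), and 8 at day 7 with sh003 (22.8%) and 10 with sh004 (33.0%).

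Among the members with the lowest p in these comparisons, LEF1 had 4.79, 3.97 and 5.04 RPKM with sh003 at day 0, against 2.26, 2.14 and 1.25 RPKM in controls. All 3 sh003 libraries lay above all controls, with a log2 difference of 1.12 (SE 0.33, adjusted p 0.570 by limma). At day 7 LEF1 had 1.42, 2.67 and 2.82 RPKM with sh003, against 1.01 and 0.558 RPKM in controls (1.11, adjusted p 0.580). DKK1 at day 7 lay below both controls with either knockdown, by -1.88 (SE 0.43, adjusted p 0.546) for sh003 and -1.33 (SE 0.47, adjusted p 0.546) for sh004. WNT5A at day 7 was above both controls with sh003 (2.27, adjusted p 0.593). The mesenchymal marker sum was 653, 667 and 595 RPKM with sh003 at day 0, against 405, 249 and 603 RPKM in controls, and 712, 514 and 497 RPKM with sh003 at day 7, against 475 and 276 RPKM in controls; its part in these values was not tested.

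The size of the change between day 7 and day 0 was not shown to differ between lines for any member. The difference in DKK1 change was -1.75 (SE 0.58) for sh003 minus control and -1.56 (SE 0.64) for sh004 minus control, with a limma adjusted p of 1.00 for both. By limma 0 of 24 members and 0.0% of genes were called in either, and 2 members for sh003 and 1 for sh004 had an unadjusted p under 0.05, as did 1.46% of genes. With the batch term 0 members were called in both, and 0.0% of genes for sh003 and 0.0103% for sh004. Both knockdown comparisons and these differences share the control libraries.

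In spheres, 3 ligand genes were high in 3 of the 4 knockdown libraries. WNT6 had 66.4 and 7.61 RPKM in sh003 spheres and 118 and 149 RPKM in sh004 spheres, against 4.27 RPKM in the control sphere. WNT10A had 51.3 and 0.591 RPKM in sh003 spheres and 72.1 and 47.6 RPKM in sh004 spheres, against 0.574 RPKM in the control sphere. WNT10B had 8.61 and 0.247 RPKM in sh003 spheres and 8.57 and 7.28 RPKM in sh004 spheres, against 0 reads in the control sphere, where 3 reads would be 0.0294 RPKM. All 3 were thus high in both sh004 spheres and in the sh003 sh1 sphere, and far lower in the sh003 sh2 sphere, which was near the control for WNT10A and above it for WNT6 and WNT10B. They were singled out after their values were seen, and all 3 encode ligands of the canonical branch.

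None of them was called, in a fit where the single control sphere was assumed to vary like the knockdown pairs. For sh004 against control the log2 differences were 4.80 for WNT6 (SE 1.08, adjusted p 0.118 by limma) and 5.78 for WNT10A (SE 1.96, adjusted p 0.173). WNT10B averaged at least 270-fold more than the control floor (adjusted p 0.159). In the 4 fits without 1 knockdown sphere the sh004 differences were 4.64 to 4.97 for WNT6 and 5.48 to 6.08 for WNT10A. For WNT10B they were 3.96 to 4.18. Each of these 4 fits left 1 library in a knockdown group, so no call for sh004 against control is read from them. Without the sh003 sh1 sphere, WNT10A and WNT10B passed the filter on low values through the sh004 spheres alone, where they were high. With the deposited RPKM, mostly scaled by another library's total, adjusted p by limma was 0.000818, 1.09e-05 and 0.00279 for WNT6, WNT10A and WNT10B. For sh003 against control the genes passed only without the sh003 sh2 sphere, which leaves 1 library on each side. The summed retinoic acid response markers, mostly CRABP2, were 758 and 80.9 RPKM in sh003 spheres and 1975 and 1203 RPKM in sh004 spheres, against 319 RPKM in the control sphere, and were thus high in the same 3 libraries; CYP26A1 was at most 0.710 RPKM in any sphere. The part of these markers in the ligand values was not tested.

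**Figure D4:**
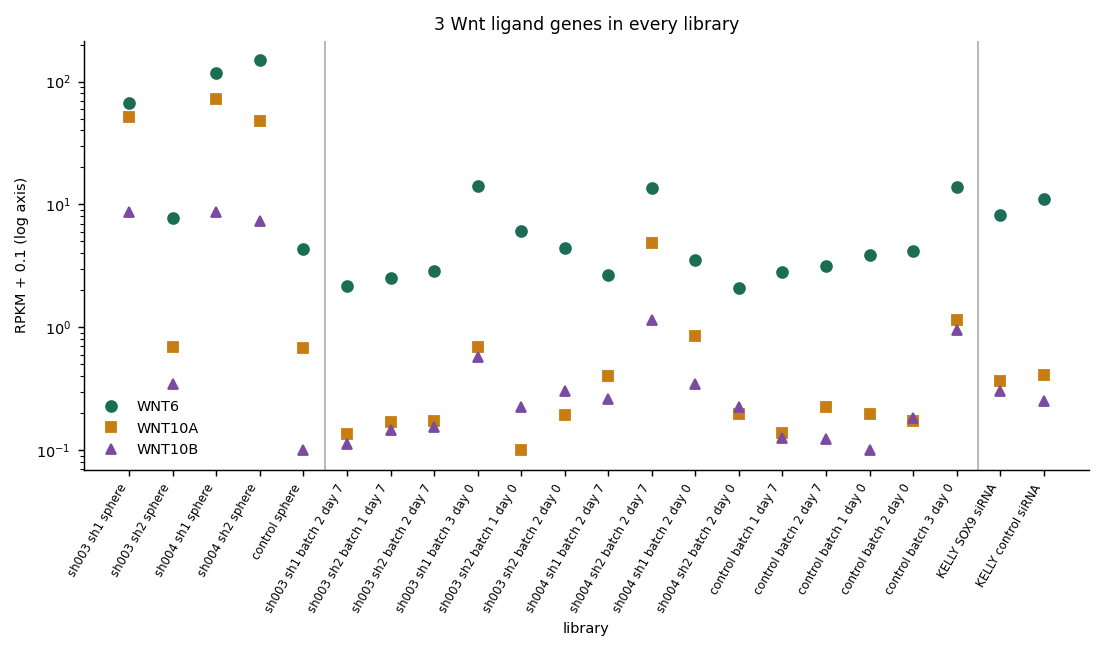
RPKM + 0.1 (log axis) of WNT6, WNT10A and WNT10B in all 22 libraries, with spheres on the left, monolayers in the middle and KELLY on the right. The sh003 sh1 sphere and both sh004 spheres stand highest for all 3 genes, and the sh004 sh2 day 7 and control batch 3 day 0 libraries are the highest monolayers for WNT10A and WNT10B.

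WNT6 and WNT10A are neighbours on chromosome 2, and their promoters are printed because the genes were high in the same libraries. Their RefSeq records overlap, with a gap of -118 bases. The part of that overlap in their values was not tested. Neither holds either motif, so no capitals appear. They are from RefSeq, GRCh38.p14.
WNT6, chr2:218859555-218859854, plus strand: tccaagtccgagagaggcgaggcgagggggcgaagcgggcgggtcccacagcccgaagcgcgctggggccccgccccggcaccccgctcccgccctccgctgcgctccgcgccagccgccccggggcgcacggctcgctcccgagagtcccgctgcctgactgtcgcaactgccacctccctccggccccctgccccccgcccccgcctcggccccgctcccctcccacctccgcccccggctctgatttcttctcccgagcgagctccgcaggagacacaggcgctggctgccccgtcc
WNT10A, chr2:218880602-218880901, plus strand: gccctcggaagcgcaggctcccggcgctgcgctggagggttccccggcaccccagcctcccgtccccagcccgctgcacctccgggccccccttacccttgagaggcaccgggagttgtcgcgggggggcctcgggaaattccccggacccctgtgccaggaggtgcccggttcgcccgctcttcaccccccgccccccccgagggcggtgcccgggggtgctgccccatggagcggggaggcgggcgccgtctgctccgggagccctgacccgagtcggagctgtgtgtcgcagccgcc
Of their bases 78.0% and 76.7% are G or C. WNT10B lies on chromosome 12.

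Against the control sphere, limma called 0 members for sh003 (0.0% of genes), with 3 members and 19.1% of genes at an unadjusted p under 0.05. It called 0 for sh004 (0.129% of genes), with 10 members and 22.2% of genes below that level; the voom fit likewise gave 0 calls in each. In sh003 spheres DKK2 had 7.33 and 17.7 RPKM, against 0.632 RPKM in the control sphere (3.40, SE 0.552, adjusted p 0.159 by limma). LEF1 had 3.90 and 2.31 RPKM there, against 0.783 RPKM in the control sphere (1.46, adjusted p 0.192). FZD9, a Frizzled also singled out after its values were seen, had 14.99 and 2.21 RPKM in sh003 spheres and 13.5 and 9.34 RPKM in sh004 spheres, against 2.55 RPKM in the control sphere, and was thus high in the same 3 libraries as the ligands.

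Setting the knockdowns against each other, sh003 spheres had more RNA for 3 receptors and 2 antagonists than sh004 spheres, and less WNT5A, FZD7 and SFRP4. These were 8 calls among 22 members, 5 up (23.1% of genes) and 3 down (16.8%), where 39.9% of all genes were called, so that the member share of 36.4% is near the background. LRP6 had 6.18 and 10.0 RPKM in sh003 spheres, against 1.998 and 1.95 RPKM in sh004 spheres (1.76, SE 0.277, adjusted p 0.00915 by limma). FZD1, a Frizzled receptor, had 5.94 and 6.16 RPKM in sh003 spheres, against 2.69 and 2.91 RPKM in sh004 spheres (0.99, SE 0.206, adjusted p 0.0153). FZD3, a Frizzled of axon guidance and polarity, had 2.59 and 3.77 RPKM in sh003 spheres, against 1.59 and 1.27 RPKM in sh004 spheres (0.92, adjusted p 0.0432). The sh003 libraries lay above the sh004 libraries for each of these receptors.

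DKK2 had 7.33 and 17.7 RPKM in sh003 spheres, against 1.74 and 3.15 RPKM in sh004 spheres (2.06, SE 0.451, adjusted p 0.0172 by limma). FRZB, a ligand-binding antagonist, had 13.5 and 19.1 RPKM in sh003 spheres, against 7.67 and 8.67 RPKM in sh004 spheres (0.94, adjusted p 0.0241). SFRP4 had 1.15 and 0.0601 RPKM in sh003 spheres, against 4.57 and 2.79 RPKM in sh004 spheres (-2.09, adjusted p 0.0298). For these 3 antagonists the sh003 and sh004 spheres did not overlap. FZD7 had 16.6 and 13.6 RPKM in sh003 spheres, against 36.5 and 29.2 RPKM in sh004 spheres (-1.10, SE 0.213, adjusted p 0.0128). WNT5A had 2.28 and 1.01 RPKM in sh003 spheres, against 9.03 and 4.56 RPKM in sh004 spheres (-1.76, adjusted p 0.0223). Of the 5 called members that stood higher at day 7 in all 6 same-batch pairs, FZD7, WNT5A and SFRP4 were lower and LRP6 and DKK2 higher in sh003 than in sh004 spheres.

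DKK1 had 18.5 and 91.9 RPKM in sh003 spheres, against 17.8 and 5.30 RPKM in sh004 spheres, and 15.6 RPKM in the control sphere, a wide spread with no call (2.02, adjusted p 0.0920 by limma). SFRP1, DKK3, LRP5, FZD2, FZD5, FZD6, WNT3, AXIN2 and LEF1 were not called either. Over all genes the median difference was 0.13 on the log2 scale, and -0.01 after median-ratio scaling, under which 47.1% of calls were higher, beside 57.9% without it. LRP6 held in 4 of 5 fits without 1 library (lost without the sh004 sh2 sphere, adjusted p 0.0535). The other 7 calls held only without the control or the sh003 sh1 sphere, and were lost without the sh003 sh2 sphere or either sh004 sphere (highest adjusted p 0.0587 for FZD7, 0.0653 for FZD1, 0.0805 for DKK2, 0.107 for FRZB and WNT5A, 0.142 for SFRP4 and 0.186 for FZD3). All 8 were lost with no filter and with the deposited sphere RPKM. Of 57 other pathway genes tested, 22 were higher and 3 lower in sh003 spheres, beside 23.1% and 16.8% of all genes, among them MYC at 33.4 ± 20.8 RPKM against 3.21 ± 0.531 RPKM in sh004 spheres (adjusted p 0.00875 by limma) and the R-spondin RSPO1, a secreted Wnt agonist, at 3.48 ± 0.0110 against 0.224 ± 0.180 RPKM (0.00875; SD, n = 2 each). Without the sh004 sh2 sphere both calls were lost (adjusted p 0.0511 for MYC and 0.0506 for RSPO1). RSPO1 passed the filter only through the sh003 spheres, where it was high, and was tested in 3 of the 5 fits without 1 library. Neuroblast markers moved too: 4 of 10 were higher in sh003 spheres (GATA2, GATA3, DBH and CHGB), with sums of 3755 and 2224 RPKM against 2797 and 3434 RPKM in sh004 spheres, and their part in the Wnt gene values was not tested.

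**Figure D5:**
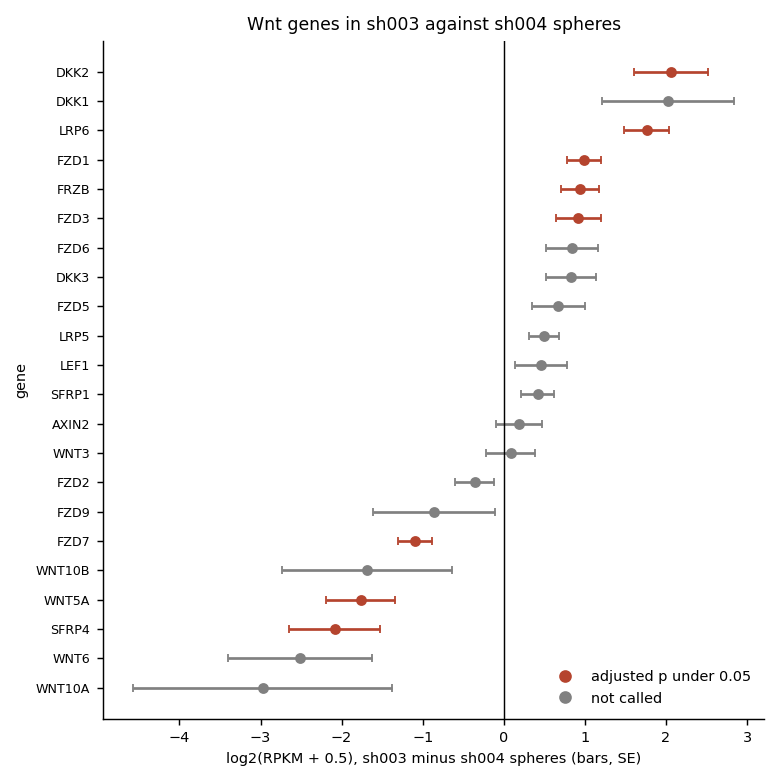
Difference in log2(RPKM + 0.5) between sh003 and sh004 spheres (2 libraries each) for the 22 tested members, with the standard error as bars; red points passed an adjusted p under 0.05. LRP6 at 1.76 has the lowest adjusted p, while WNT6, WNT10A and WNT10B are negative with wide errors.

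In KELLY cells the SOX9 siRNA library had 0.974 RPKM of SOX9, the targeted gene, against 5.61 RPKM in the control library. With 1 library on each side there is no replicate check, and the intervals given (exact Clopper-Pearson, 95%) cover counting error only. DKK1 had 14.8 RPKM (784 reads) with SOX9 siRNA, against 3.79 RPKM (213 reads) with control siRNA, a ratio of 3.91 (3.35 to 4.57). It was the only 1 of 13 members at 1 RPKM or above in both libraries to differ by more than 2-fold on the RPKM + 0.5 scale, where 1.6% of 13070 genes did. WNT3 had 2.95 against 5.24 RPKM in the control library (ratio 0.564, 0.489 to 0.648), and DKK3 5.68 against 8.43 RPKM (0.674, 0.612 to 0.742). WNT6 had 8.05 against 10.9 RPKM (0.737, 0.638 to 0.850), SFRP1 58.7 against 74.4 RPKM (0.789, 0.764 to 0.814) and FZD7 22.4 against 18.1 RPKM (1.24, 1.16 to 1.32). WNT5A had 0 reads in both libraries, where 3 reads would be 0.0188 RPKM with SOX9 siRNA and 0.0177 RPKM with control siRNA, and AXIN2 had 0.0160 RPKM with SOX9 siRNA and 0.0680 RPKM with control siRNA. Of the 42 members, 9 had 0 reads in both KELLY libraries, and the median log2 ratio of the 13 was 0.11 beside 0.04 over all genes.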

How the data were processed

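Total RNA libraries, prepared with a stranded kit after ribosomal RNA removal per the labels' protocols, were deposited by the authors as 3 tables of RPKM. TopHat, featureCounts and Subread with hg19 are named in the submitters' processing notes; versions and the strand used in counting are not given in the sources used here. Whole read counts were recovered from the deposited RPKM (100.0% of values within 0.01 of a whole read). In the sphere table most values were scaled by another library's total, so sphere RPKM were recomputed with each library's own total. Totals were 11884895 to 62075189 reads.

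Genes at 1 RPKM or above in at least 2 libraries were tested with limma 3.58.1 (R 4.3.3) on log2(RPKM + 0.5) with a mean-dependent prior, in 1 fit for all 15 monolayers and 1 for the 5 spheres, with Benjamini-Hochberg adjustment over all genes and a threshold of 0.05. KELLY values were compared without a test, with intervals that cover counting error only. The fits without a batch term were run on simulated counts with the same spread for every gene and no batch differences. That check does not cover batch effects or shRNAs that disagree, as in these libraries. Symbols were found for 52181 of 63677 gene IDs. Samples were grouped by title. Titles name batches. Deviations from group means in control and sh003 libraries correlated at 0.716 to 0.942 within batches and -0.920 to 0.744 between them. Deviations within a group sum to 0, which fixes part of the negative values in advance. Libraries of batch 2 correlated at 0.536 to 0.744 with those of batch 3. The sh004 libraries, all of batch 2, cannot show a batch difference and were left out of these ranges. Batch was used as a block beside the design without it. Alternatives were pseudocount, filter, median-ratio scaling, voom on recovered reads, batch block, leaving out each library, leaving out the 2 libraries with contradicting tags, and the deposited sphere RPKM.

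The members, gene lists and marker lists were chosen with earlier results of these data known. Genes named by rule were FZD7, DKK1, DKK3, WNT5A, WNT11, SFRP1, SFRP4, FZD1, FZD3, LRP6, DKK2 and FRZB, the members called in any monolayer or sphere comparison with or without the batch term; other named members were chosen after their values were seen. Promoters came from RefSeq. Exon overlaps came from a GENCODE annotation of a later build than hg19, so shares in the annotation used for counting may differ. The separate result of a neuroblast marker gene is not reported here.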

Additional observations from a re-analysis of the deposited data

How the results depend on the processing

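In control cells 0 members were called between day 7 and day 0, against 3 with the batch block and 0 to 1 when each library was left out. In sh003 cells 2 were called, against 1 with no filter, 1 with voom, 6 with the batch block, 1 without the libraries with contradicting tags, and 1 to 2 leaving out each library. In sh004 cells 1 was called, against 2 with the batch block, 0 without those libraries, and 0 to 2 leaving out each library. With the batch block the counts were higher in all 3 lines. Batch 3 holds only day 0 libraries, so the block takes up their shared level, which does not enter day 7 against day 0. All sh004 monolayers are of batch 2, so the block pairs nothing there and leaves the sh004 fold changes as they were (DKK1 -2.94). In spheres the sh003 comparison with control gave 0 calls and 0 to 3 leaving out each library, and the sh004 comparison 0 calls, 0 to 5 leaving out each library and 3 with the deposited RPKM. Between sh003 and sh004 spheres 8 were called, against 0 with no filter, 2 with the deposited RPKM, and 0 to 14 leaving out each library. The causes were not tested. No result changed direction while called under the alternatives run, and knockdown against control in monolayers gave 0 calls with and without the block. With 1 control sphere and 1 KELLY library on each side, those values have no replicate check of their own.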
